A study of Mus musculus with 8 samples.

Results

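A set of 10 genes that restrain or report signalling through the ERK branch of the MAP kinase pathway were followed in the liver of mice given one pulse of growth hormone (GH). They are the dual-specificity phosphatases Dusp1, Dusp4 and Dusp6, the Sprouty genes Spry1, Spry2 and Spry4, the Spred genes Spred1 and Spred2, the transcription factor gene Etv5, and Phlda1. The genes were taken by symbol from the authors' expression table, which lists 24197 genes, and all 10 were found there. Phlda1 was the only member whose exonic reads were called higher than in animals without GH, at 30, 90 and 240 min. Intronic reads of Phlda1 and Spred1 rose at 30 and 90 min, and those of Spred2 fell at 240 min. The 30 min call of Spred1 and the 240 min call of Spred2 were each lost in 4 of the alternatives run. The Sprouty genes, the phosphatase genes and Etv5 did not pass the test against animals without GH in exons, nor in introns, where Spry2 had too few reads to be tested. Some alternatives called Dusp1, Dusp6 or Etv5. The authors' deposited table calls Dusp6 lower at every point except 30 min over the gene body. It also calls Spred1 higher over the gene body at 90 min and Etv5 higher in introns at 240 min. Values are given below.

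The study used liver of male CD-1 mice aged 11 weeks, whose pituitary had been removed when they were 7 weeks old. GH-treated mice received 1 intraperitoneal injection of the recombinant rat hormone (125 ng for each g of body weight) and were studied 30, 90 or 240 min later, and a single group without GH (Hypox) served all 3 times. The study design calls the Hypox animals untreated, whereas the treatment protocol says that controls were given vehicle. All 4 groups share the hypophysectomy, and each holds 2 libraries of ribosome-depleted, strand-specific total RNA, each from a pool of 4 individuals.

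Growth hormone acts in hepatocytes through its receptor and the kinase JAK2, which activates STAT transcription factors and can also feed the Ras, Raf, MEK and ERK cascade. Active ERK induces genes that shut the cascade down again. The dual-specificity phosphatases remove phosphate from MAP kinases, and Sprouty and Spred proteins act between the receptor and Raf. Etv5 is an ETS factor whose transcription follows ERK activity in many tissues, and Phlda1 encodes a pleckstrin homology-like domain protein that is also induced by growth factors.

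The 8 libraries held 15935303 to 34452570 mapped reads, of which 24.8 to 26.7% lay in exons and 14.9 to 17.7% in introns. The deposited values are group means, so the reads of each library were recovered from them by arithmetic, and libraries go by depth within their group (deeper, shallower) because their pool number is not known. One Hypox pool carries another prefix in its sample name than the other 7 libraries, and which recovered library it is cannot be told. The shallower library at 30 min stood apart in reads on Lars2, with 2190 CPM (counts scaled to a common number of mapped reads) against 6.92 to 370 CPM in the other 7 libraries. Levels below are scaled CPM unless another unit is named. Each difference is a log2 fold change of CPM + 0.1 with its standard error (SE) from limma. A gene was called at a Benjamini-Hochberg adjusted p under 0.05 over all genes tested. With 2 pools against 2, an exact permutation test of a single gene could not reach this threshold, so every test rests on the spread estimated across all genes and groups. Libraries that do not overlap between groups are described below, which is not a test. With 2 against 2 this is common by chance, and its share over all genes was not counted. Genes named because they were called tend to show it. In exons at 240 min 1 member lay above and 6 below Hypox without overlap, and 1 was called.

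Per length of exon, Dusp6 was the most abundant member in Hypox liver and Phlda1 the most abundant at every time after GH. In Hypox liver Dusp6 had 10.9 ± 2.83 FPKM (the authors' unit, fragments per length of exon and per mapped read; SD, n = 2). Phlda1 followed with 5.21 ± 0.751 FPKM, Dusp1 with 3.43 ± 0.542 FPKM and Spred1 with 2.53 ± 0.221 FPKM, and the libraries of these 4 genes did not overlap. Spred2 (1.42 ± 0.137 FPKM) and Spry4 (1.39 ± 0.0757 FPKM) could not be ordered, because their libraries overlapped. Spry1 (0.82 ± 0.208 FPKM) overlapped with Etv5 (0.693 ± 0.213 FPKM), and Etv5 with Spry2 (0.512 ± 0.083 FPKM). Dusp4 was the lowest, at 0.422 ± 0.0286 FPKM. The mean of Phlda1 was 35.0 FPKM at 30 min, 54.4 FPKM at 90 min and 14.4 FPKM at 240 min. Dusp6 was second at each of these times, at 6.74, 5.6 and 7.21 FPKM.

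**Figure D1:**
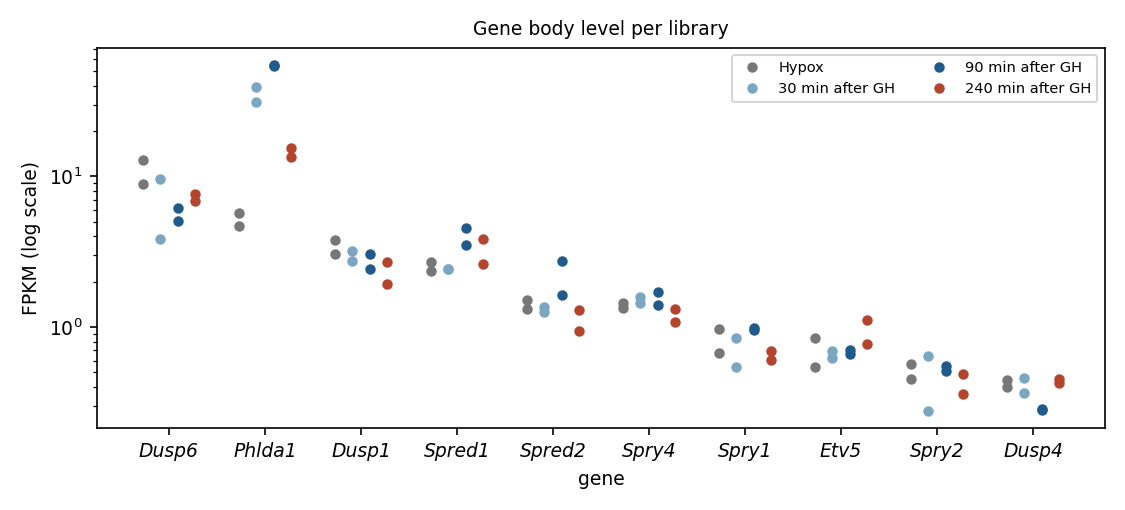
Gene body level of the 10 genes in FPKM on a log axis, one point per library, with the genes ordered by their Hypox mean and the groups in the order of time within each gene. Phlda1 is below Dusp6 in Hypox liver (5.21 against 10.9 FPKM) and above every other member at 30, 90 and 240 min.

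Phlda1, an intracellular protein linked to growth factor responses and apoptosis, lies on chromosome 10 from position 110943342 to 110945705 (mm9). In the GENCODE annotation (GRCm38) it has 2 exons on the plus strand and a single intron of 411 bases, which lies in the 3′ UTR, after the stop codon. Exonic reads stood at 9.05 CPM in the deeper and 11.6 CPM in the shallower Hypox library, at 60.2 and 83.0 CPM at 30 min, at 107 and 103 CPM at 90 min, and at 25.02 and 29.2 CPM at 240 min. Every library after GH was above both Hypox libraries, and both libraries at 240 min were below all 4 at the earlier times. The rise was 2.78 ± 0.17 (SE) at 30 min, a 6.85-fold difference (adjusted p = 0.000106). At 90 min it was 3.35 ± 0.17, or 10.2-fold (adjusted p = 1.56e-05), and at 240 min 1.39 ± 0.17, or 2.62-fold (adjusted p = 0.00172). By p-value Phlda1 was 1st of 13169 genes at 30 and at 90 min and 51st at 240 min, and by the size of its rise it was 8th, 5th and 93rd. These calls held in every alternative run, including the omission of any single library of the 2 groups compared.

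The time course of Phlda1 was tested between the GH groups as well. At 240 min its exonic reads fell by 1.96 ± 0.17 on the log2 scale against 90 min (adjusted p = 0.00087) and by 1.38 ± 0.17 against 30 min (adjusted p = 0.00223). Between 90 and 30 min the difference was 0.57 ± 0.17, with a 95% confidence interval of 0.20 to 0.95 and an adjusted p of 0.337. A higher level at 90 than at 30 min is therefore not called, and limma called no gene of the table in that comparison (0.0% of 13169), nor did limma-voom (0 genes), while 1161 genes had an unadjusted p under 0.05.

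**Figure D2:**
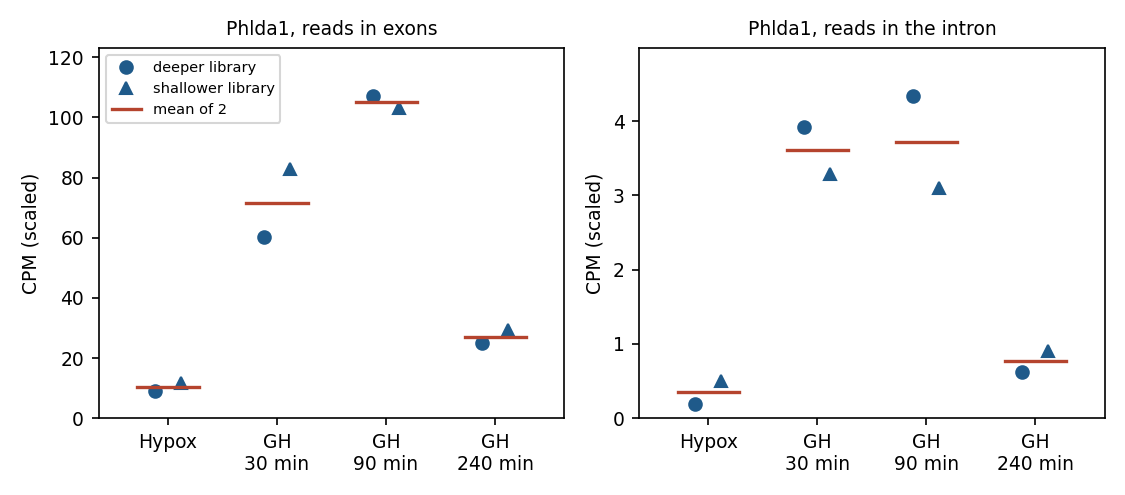
Scaled CPM of Phlda1 in exons (left) and in its only intron (right) in Hypox liver and 30, 90 and 240 min after GH, with a point per library and a line at the mean of the 2. Exonic means run 10.3, 71.6, 105 and 27.1 CPM, and intronic means 0.35, 3.6, 3.72 and 0.765 CPM.

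Intronic reads, which in total RNA come largely from unspliced transcripts, followed a similar course for Phlda1 but were few. Whether those of Phlda1 come from unspliced transcripts or from finished ones that keep this 3′ UTR intron was not tested. The deeper and shallower libraries held 7 and 16 intronic reads in Hypox liver, 104 and 58 at 30 min, and 17 and 20 at 240 min. In scaled CPM these were 0.195 and 0.504 in Hypox liver, 3.93 and 3.28 after 30 min, 4.34 and 3.11 after 90 min, and 0.624 and 0.906 after 240 min. All 4 libraries at 30 and 90 min were above the Hypox and the 240 min libraries. Intronic reads rose by 3.13 ± 0.36 at 30 min (adjusted p = 0.00118) and by 3.16 ± 0.36 at 90 min (adjusted p = 0.000712). At 240 min the difference from Hypox was 1.01 ± 0.36 (95% confidence interval 0.22 to 1.81) and was not called (adjusted p = 0.0959). Against 90 min intronic reads at 240 min fell by 2.14 ± 0.36 (adjusted p = 0.0039), and against 30 min they differed by -2.11 ± 0.36 (adjusted p = 0.00495). That call against 30 min ended when the deeper library at 240 min was left out, with a difference of -1.87 (adjusted p = 0.0539).

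The ratio of exonic to intronic reads of Phlda1 passed no test. Exonic over intronic CPM was 46.3 and 22.95 in Hypox liver, 15.3 and 25.3 after 30 min, 24.7 and 33.2 after 90 min, and 40.1 and 32.2 after 240 min. The Hypox pair rests on the 7 and 16 intronic reads given above. Relative to Hypox the log2 ratio differed by -0.35 ± 0.28 at 30 min (adjusted p = 0.72), by 0.19 ± 0.28 at 90 min (adjusted p = 0.867) and by 0.38 ± 0.28 at 240 min (adjusted p = 0.591). With 1 CPM added in place of 0.1 CPM the ratio of Phlda1 was called at all 3 times, at intronic levels that lie below 1 CPM in both Hypox libraries.

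Among the phosphatases, Dusp6, which acts on ERK in the cytoplasm, was lower on average at every time after GH, without a call. Its exonic reads were at 35.9 and 25.8 CPM in Hypox liver, at 26.8 and 11.7 CPM at 30 min, at 14.1 and 16.9 CPM at 90 min, and at 18.1 and 20.7 CPM at 240 min. The libraries at 90 and 240 min were below both Hypox libraries, whereas those at 30 min overlapped with them. The differences were -0.78 ± 0.31 at 30 min (adjusted p = 0.633), -0.98 ± 0.31 at 90 min (adjusted p = 0.253) and -0.65 ± 0.31 at 240 min (adjusted p = 0.20). Fitted with Hypox alone, the difference at 90 min was -0.97 and was called (adjusted p = 0.0353). The value at 30 min depended on the library: it was -1.37 without the deeper 30 min library (adjusted p = 0.035) and -0.18, not called, without the shallower one. The shallower 30 min library is the one with the high Lars2 reads.

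Intronic reads of Dusp6 were below both Hypox libraries in all 6 GH libraries. They were at 2.43 and 2.74 CPM in Hypox liver, 1.32 and 0.339 CPM at 30 min, 0.855 and 1.01 CPM at 90 min, and 0.771 and 1.59 CPM at 240 min. These levels rest on 87 reads in each Hypox library and on 6 to 35 reads in each GH library. The differences were -1.76 ± 0.49 at 30 min (adjusted p = 0.10), -1.38 ± 0.49 at 90 min (adjusted p = 0.129) and -1.15 ± 0.49 at 240 min (adjusted p = 0.16), none of them called. Fitted with Hypox alone, the 90 min difference was called (adjusted p = 0.0121). Without the deeper 30 min library the 30 min difference was -2.61 (adjusted p = 0.00674), and without the shallower one -0.92 (adjusted p = 0.475). In the authors' deposited table Dusp6 has a ratio of 0.505 at 90 min (adjusted p = 0.000134) and 0.632 at 240 min (adjusted p = 0.0388) over the gene body. Over introns that table gives ratios of 0.342 at 30 min, 0.359 at 90 min and 0.448 at 240 min, with adjusted p-values of 0.016, 0.000206 and 0.0267. In the limma fit the exon-to-intron log2 ratio of Dusp6 was 0.99 ± 0.29 above Hypox at 30 min, which was not called (adjusted p = 0.16). It rests on 35 and 6 intronic reads in the deeper and shallower 30 min libraries.

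Dusp1, a nuclear phosphatase that is itself an immediate early gene, and Dusp4, its nuclear relative, were not called at any time. Exonic reads of Dusp1 were at 7.33 and 6.10 CPM in Hypox liver, 6.18 and 5.78 CPM at 30 min, 4.74 and 5.84 CPM at 90 min, and 3.56 and 5.13 CPM at 240 min. The 90 and 240 min libraries were below both Hypox libraries, and the 30 min pair overlapped with them. The difference at 240 min was -0.63 ± 0.20 (adjusted p = 0.0686), and omission of the shallower 240 min library made it -0.89, past the threshold (adjusted p = 0.0408). Dusp4 had between 11 and 37 exonic reads per library. Its level was 1.06 and 1.01 CPM in Hypox liver, 0.883 and 1.22 CPM at 30 min, 0.685 and 0.676 CPM at 90 min, and 1.04 and 1.00 CPM at 240 min. The 90 min pair was the lowest, at -0.54 ± 0.27 against Hypox (adjusted p = 0.574). Intronic reads of Dusp1 and Dusp4 numbered 9 to 33 per library, and no difference in them was called.

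The promoter windows of Dusp1 and Dusp6 are shown because these phosphatases had the lowest exonic log2 fold changes of the 10 genes at 240 min and because Dusp1 is the only one of the 7 members with a window at hand that matches a searched motif. Each holds the 250 bases before the RefSeq start (GRCm38.p6), with motif matches in capitals; those of Dusp1 are a CRE 143 bases and an E-box 126 bases before the start, and Dusp6 has none.
Dusp1, chr17:26508473-26508722, minus strand: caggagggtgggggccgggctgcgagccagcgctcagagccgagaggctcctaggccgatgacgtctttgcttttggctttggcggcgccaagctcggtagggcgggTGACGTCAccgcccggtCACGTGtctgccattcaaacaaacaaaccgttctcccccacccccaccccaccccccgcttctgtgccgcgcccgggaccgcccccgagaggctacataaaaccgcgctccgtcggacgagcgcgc
Dusp6, chr10:99262981-99263230, plus strand: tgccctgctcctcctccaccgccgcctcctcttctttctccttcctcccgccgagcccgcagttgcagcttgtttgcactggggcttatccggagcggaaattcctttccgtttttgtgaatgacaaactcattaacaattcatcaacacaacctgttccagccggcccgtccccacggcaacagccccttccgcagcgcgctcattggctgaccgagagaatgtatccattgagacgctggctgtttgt

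RefSeq windows were at hand for 7 of the 10 members (Spred1, Spry1, Dusp6, Spred2, Spry2, Etv5 and Dusp1; Etv5 has 2). 5 motifs were searched on both strands, with no overlap between the matches found. The STAT element TTCNNNGAA is in 7.02% of all 32851 RefSeq windows of this length, the CRE (TGACGTCA) in 1.55%, the AP-1 site TGANTCA in 6.75%, the ETS core CCGGAA in 12% and the E-box CACGTG in 6.02%. Apart from the pair of matches in Dusp1, none of these letters was found in the members' windows. A match is a string of letters, not a bound site.

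The Sprouty genes encode inhibitors of receptor tyrosine kinase signalling, and none of the 3 was called at any time. Exonic reads of Spry4 were at 6.55 and 6.32 CPM in Hypox liver, 7.25 and 7.21 CPM at 30 min, 7.82 and 6.33 CPM at 90 min, and 4.72 and 5.86 CPM at 240 min. The 30 min pair lay above and the 240 min pair below both Hypox libraries, by 0.17 ± 0.16 (adjusted p = 0.895) and -0.29 ± 0.16 (adjusted p = 0.29). Spry1 ranged from 1.45 to 2.40 CPM and Spry2 from 0.636 to 1.32 CPM over the 8 libraries. Differences from Hypox were between -0.38 and 0.22 for Spry1 and between -0.32 and 0.03 for Spry2, and the 95% confidence interval of Spry2 at 30 min ran from -0.95 to 0.56. Its exonic level rests on 12 to 41 reads per library. In introns Spry2 had 1 to 7 reads per library and was not tested.

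Spred1, a membrane-associated inhibitor of Ras and Raf activation, was called against Hypox in introns and not in exons. With 0.1 CPM added, its exon-to-intron ratio was not called against Hypox at any time. The gene lies on chromosome 2 from position 116946807 to 117008013 (mm9), with 54123 intronic bases against 7084 exonic bases in the counting model. Intronic reads were at 20.5 and 22.5 CPM in Hypox liver, at 35.8 and 40.0 CPM at 30 min, at 40.9 and 42.3 CPM at 90 min, and at 21.3 and 21.2 CPM at 240 min. All 4 libraries at 30 and 90 min were above both Hypox and both 240 min libraries, which lay side by side. Intronic reads rose by 0.82 ± 0.14 at 30 min, or 1.76-fold (adjusted p = 0.0128), and by 0.95 ± 0.14 at 90 min, or 1.93-fold (adjusted p = 0.00282). At 240 min the difference from Hypox was -0.02 ± 0.14 (adjusted p = 0.962, 95% confidence interval -0.33 to 0.30). At that time they fell by 0.97 ± 0.14 against 90 min (adjusted p = 0.00197) and by 0.83 ± 0.14 against 30 min (adjusted p = 0.00493).

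The 30 min call of Spred1 was less firm than the later one. It was lost when 30 min and Hypox were fitted alone (0.82, adjusted p = 0.0567). Omitting a library also ended it, at 0.73 for the shallower 30 min library (adjusted p = 0.084), 0.75 for the deeper Hypox library (adjusted p = 0.121) and 0.88 for the shallower Hypox library (adjusted p = 0.0591). The 90 min call and both differences between 240 min and the earlier times were kept in every alternative run.

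Exonic reads of Spred1 were at 18.8 and 17.3 CPM in Hypox liver, 17.2 and 18.9 CPM at 30 min, 24.98 and 31.8 CPM at 90 min, and 26.03 and 18.2 CPM at 240 min. The 90 min pair was above both Hypox libraries, and the 30 min pair spanned the Hypox values. Differences of 0.00 ± 0.18 at 30 min (adjusted p = 0.998), 0.64 ± 0.18 at 90 min (adjusted p = 0.174) and 0.27 ± 0.18 at 240 min (adjusted p = 0.365) were not called. The authors' deposited table gives Spred1 a gene body ratio of 1.58 at 90 min (adjusted p = 0.0127). Exonic over intronic CPM was 0.919 and 0.77 in Hypox liver, 0.479 and 0.472 after 30 min, 0.611 and 0.752 after 90 min, and 1.22 and 0.859 after 240 min. On the log2 scale this ratio at 30 min was 0.82 ± 0.20 below Hypox, which was not called (-0.82, adjusted p = 0.0973). With 1 CPM added in place of 0.1 CPM the ratio of Spred1 at 30 min was called. At 240 min it was higher than at 30 min by 1.10 ± 0.20 (adjusted p = 0.0099), a call that was lost without the shallower 30 min library (1.09, adjusted p = 0.0693) or the deeper 240 min library (0.85, adjusted p = 0.0688).

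**Figure D3:**
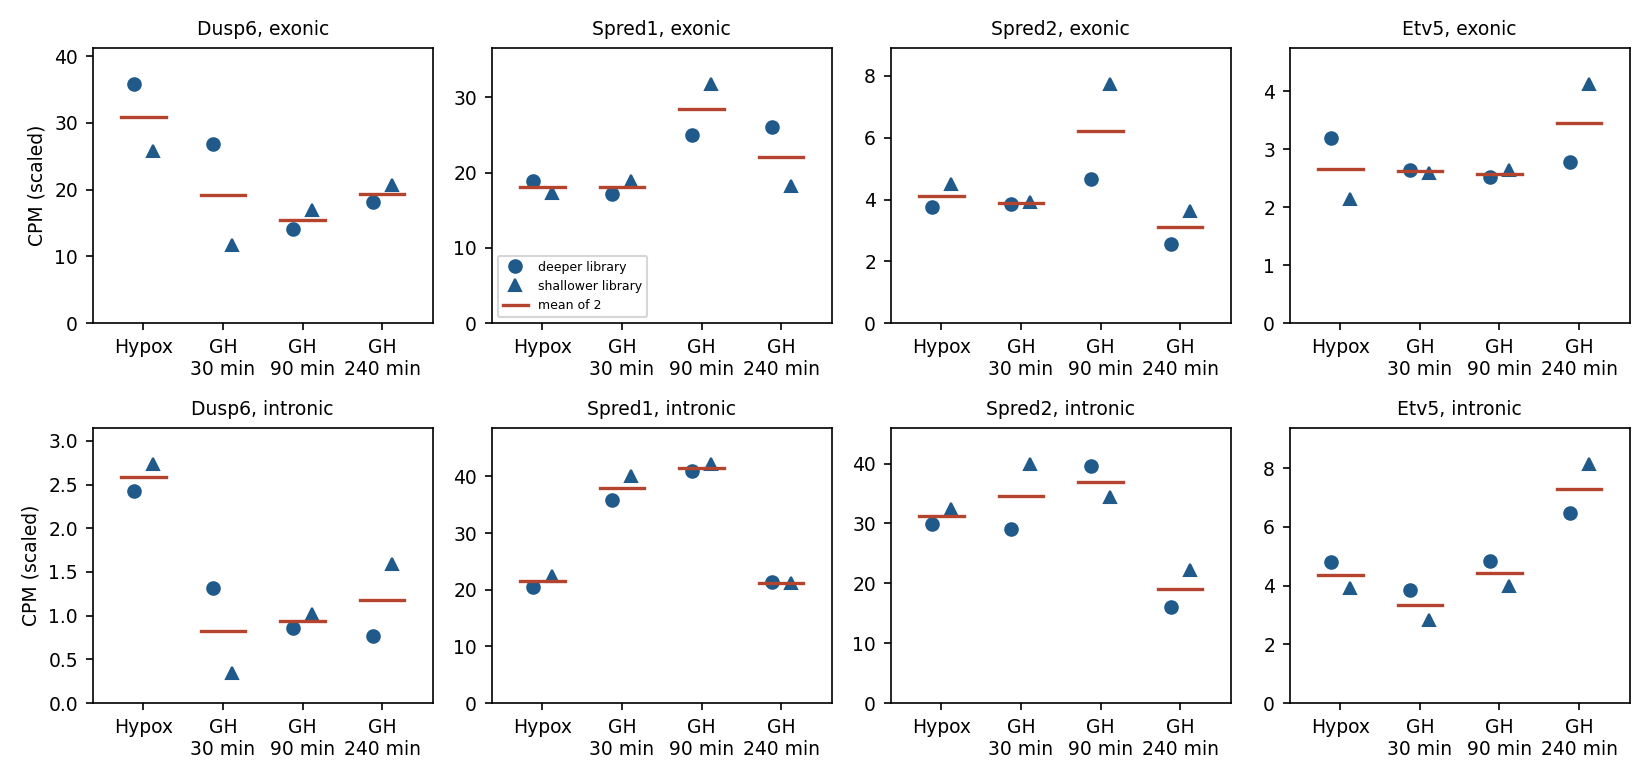
Scaled CPM of Dusp6, Spred1, Spred2 and Etv5 in exons (top) and introns (bottom), in Hypox liver and 30, 90 and 240 min after GH, with a point per library and a line at the mean of the 2. Intronic Spred1 stands near 21 CPM in Hypox liver and at 240 min and near 40 CPM between, while intronic Dusp6 is lower in all 6 GH libraries than in both Hypox libraries.

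Spred2, the close relative of Spred1, had lower intronic reads at 240 min. They were at 29.9 and 32.4 CPM in Hypox liver, 29.1 and 40.0 CPM at 30 min, 39.6 and 34.3 CPM at 90 min, and 16.04 and 22.2 CPM at 240 min. Both 240 min libraries were below the other 6. Against Hypox the fall was 0.72 ± 0.20 on the log2 scale (adjusted p = 0.0416), with -0.96 ± 0.20 against 90 min (adjusted p = 0.0112) and -0.85 ± 0.20 against 30 min (adjusted p = 0.021). With no filter on low counts the call against Hypox missed the threshold (adjusted p = 0.0582). It also ended on omission of the deeper 240 min library (-0.49, adjusted p = 0.252), the deeper Hypox library (-0.78, adjusted p = 0.0931) or the shallower Hypox library (-0.67, adjusted p = 0.24). Omission of the deeper 240 min library ended the calls against 90 min (-0.73, adjusted p = 0.0916) and against 30 min (-0.62, adjusted p = 0.159) as well. So did omission of the deeper 90 min library for the comparison with 90 min (-0.86, adjusted p = 0.0837), and of the shallower 30 min library for that with 30 min (-0.63, adjusted p = 0.139).

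Exonic reads of Spred2 were few, at 3.77 and 4.50 CPM in Hypox liver, 3.86 and 3.92 CPM at 30 min, 4.67 and 7.75 CPM at 90 min, and 2.56 and 3.63 CPM at 240 min. The 240 min pair was below and the 90 min pair above both Hypox libraries. Neither was called against Hypox, at -0.42 ± 0.25 for 240 min (adjusted p = 0.309) and 0.54 ± 0.25 for 90 min (adjusted p = 0.525), and the difference of -0.96 ± 0.25 between 240 and 90 min missed the threshold (adjusted p = 0.053).

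Etv5 had its highest intronic level at 240 min. Its intronic reads were at 4.80 and 3.91 CPM in Hypox liver, 3.85 and 2.83 CPM at 30 min, 4.86 and 4 CPM at 90 min, and 6.46 and 8.16 CPM at 240 min. Both 240 min libraries were above the other 6, and both 30 min libraries were below both Hypox libraries. The difference at 240 min was 0.73 ± 0.22 against Hypox (adjusted p = 0.0556). It was called with limma-voom (adjusted p = 0.0402), with the 2 groups fitted alone (adjusted p = 0.0499) and in the authors' deposited table, which gives a ratio of 1.67 (adjusted p = 0.0463). Against 30 min the 240 min level was higher by 1.11 ± 0.22 (adjusted p = 0.0101), a call that was lost without the shallower 30 min library (0.90, adjusted p = 0.0745) or the shallower 240 min library (0.95, adjusted p = 0.0802). Exonic reads of Etv5 were at 3.19 and 2.14 CPM in Hypox liver, 2.65 and 2.60 CPM at 30 min, 2.52 and 2.64 CPM at 90 min, and 2.79 and 4.13 CPM at 240 min. The groups overlapped at all times, and the difference at 240 min was 0.37 ± 0.24 (adjusted p = 0.367).

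Counts over the members are set beside those over all genes. The members were chosen with earlier results of these data known, so these shares do not test the set, here or below. In exons 1 of 10 members, Phlda1, was called higher at each time, where 0.0532%, 0.63% and 5.72% of the 13169 genes tested were called higher at 30, 90 and 240 min. These shares rest on 9, 111 and 1482 genes called in either direction, numbers that ran from 2 to 38, 11 to 28 and 362 to 1020 when 1 library was left out. The median log2 fold change of the 10 was -0.04 at 30 min, 0.08 at 90 min and -0.30 at 240 min, beside -0.01, -0.02 and -0.03 over all genes. In introns 2 of the 9 members tested were called higher at 30 and at 90 min, where 1.41% and 3.29% of 12216 genes were, and 1 was called lower at 240 min, where 6.25% were. The genes called in introns in either direction numbered 297, 930 and 1370, and 90 to 442, 334 to 543 and 134 to 1119 when 1 library was left out. Median intronic changes were 0.13, 0.07 and -0.30, beside -0.02, -0.02 and 0.00 over all genes. No ratio of exons to introns was called against Hypox for the 9 members, where 1.06%, 2.36% and 1.21% of 11489 genes were called at 30, 90 and 240 min. At 30 min 2 members, Spred1 and Dusp6, had an unadjusted p under 0.05 for this ratio, and none had at 90 or 240 min.

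Between the GH times the calls went mostly to lower intronic levels at 240 min. Against 90 min, 3 of 9 members were called lower in introns (Phlda1, Spred1 and Spred2), where 6.02% of all genes were. Against 30 min the same 3 were called lower, where 5.57% were, and Etv5 was called higher, where 4.81% were. In exons Phlda1 alone was called lower at 240 min, where 2.49% of genes were called lower against 90 min and 5.0% against 30 min. The exon-to-intron call of Spred1 between 240 and 30 min stands beside 3.66% of genes called higher. All times share the same Hypox libraries, so their changes against Hypox are not independent of each other.

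**Figure D4:**
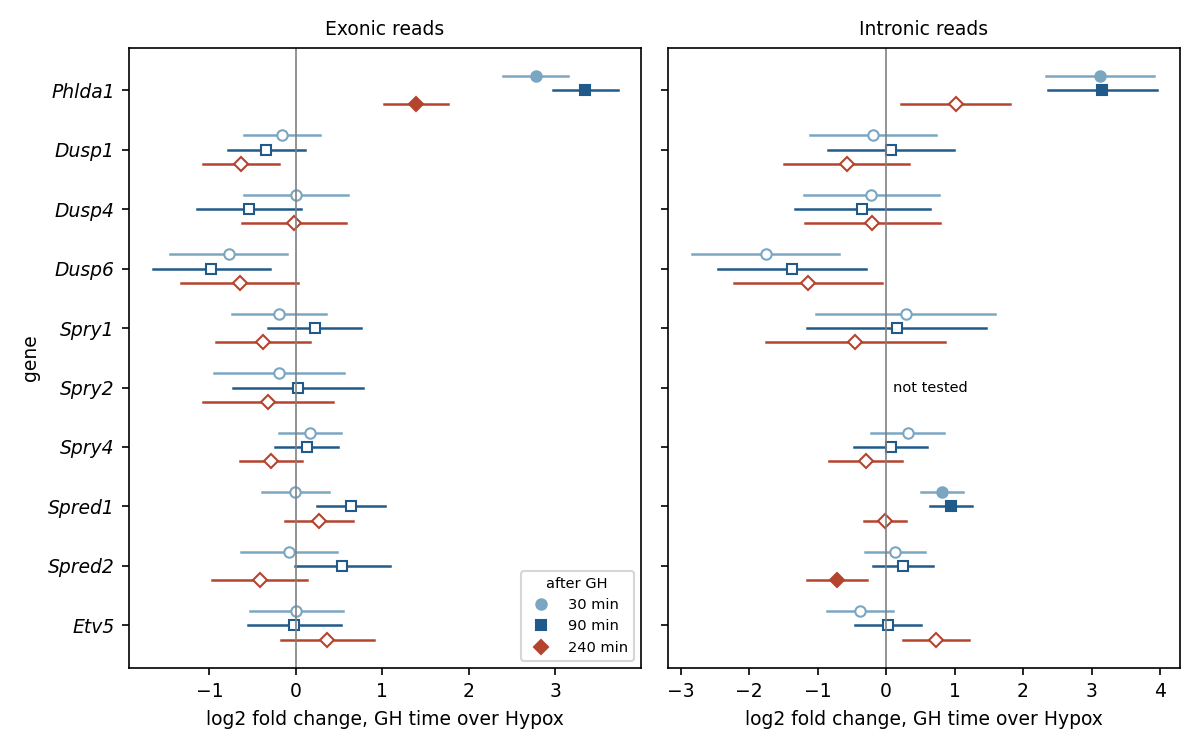
Log2 fold change of each GH time over Hypox for the 10 genes in exonic (left) and intronic (right) reads, with 95% confidence intervals that are not adjusted for multiple genes; filled symbols have an adjusted p under 0.05. Phlda1 lies at 2.78, 3.35 and 1.39 in exons, and all other exonic symbols are open.

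The authors' deposited table calls, at an adjusted p under 0.05, 1 member higher at 30 min over the gene body (Phlda1), where it calls 0.434% of 24197 genes in either direction. At 90 min it calls Phlda1 and Spred1 higher and Dusp6 lower (1.6% of genes), and at 240 min Phlda1 higher and Dusp6 lower (5.32%). Over introns it calls Phlda1 and Spred1 higher and Dusp6 lower at 30 min (1.85%) and at 90 min (5.2%), and Etv5 higher and Dusp6 and Spred2 lower at 240 min (6.04%). Some members passed in that table and not in the fit to the recovered reads. They were Dusp6 at each of these points, Spred1 over the gene body at 90 min and Etv5 in introns at 240 min. Shares from that table count both directions over all 24197 genes, of which 18359 have a gene body value above 0. They are not on the same base as shares over the genes tested with limma.

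The wider pathway was described with lists chosen with earlier results of these data known. Over all 13169 genes tested, 9 were called in either direction at 30 min, 111 at 90 min and 1482 at 240 min. Of 24 genes of the ERK cascade, from Grb2 to the Raf, MEK and ERK kinases, none was called with limma or limma-voom at 30 or 90 min, none had an unadjusted p under 0.05 at those times, and 2 were called lower at 240 min, where 5.54% of genes were. At 240 min 8 of the 24 had an unadjusted p under 0.05. Gab1, a docking protein that links receptors to Ras, had 5.24 and 5.13 CPM at 240 min, against 7.82 and 8.71 CPM in Hypox liver (-0.66 ± 0.16, adjusted p = 0.0246). Rps6ka1, a kinase that ERK activates, had 3.86 and 4.77 CPM at 240 min, against 7.99 and 6.22 CPM in Hypox liver (-0.70 ± 0.19, adjusted p = 0.0402). Both pairs lay below Hypox without overlap, but each call was lost without any single library of its 2 groups, at adjusted p-values of 0.0658 to 0.148 for Gab1 and 0.0593 to 0.222 for Rps6ka1. That of Rps6ka1 was also lost with library totals as the only scaling (adjusted p = 0.0692), with no filter on low counts (adjusted p = 0.0593) and with the 2 groups fitted alone (adjusted p = 0.0683). The median of the 24 genes was -0.06, -0.02 and -0.08 at 30, 90 and 240 min. Of the 6 tested among 7 other MAP kinase phosphatases, limma and limma-voom called none at any time, and 1 had an unadjusted p under 0.05 at 30 min, 0 at 90 min and 1 at 240 min. Of the 4 tested among 7 relatives of the members, none was called by either tool or had such an unadjusted p.

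Of 18 further genes known to follow ERK activity, 13 could be tested. Of these, 2 had an unadjusted p under 0.05 at 30 min, 4 at 90 min and 8 at 240 min. Myc, a transcription factor of growth, was called higher at 30 and 90 min, the only such call in the list. It had 8.64 and 11.4 CPM at 30 min and 11.2 and 7.38 CPM at 90 min, against 0.632 and 1.32 CPM in Hypox liver. All 4 GH libraries were above both Hypox libraries, by 3.298 ± 0.33 at 30 min (adjusted p = 0.00488) and 3.18 ± 0.33 at 90 min (adjusted p = 0.00311). At 240 min 3 of the 13 were called lower and 1 higher, where 5.54% and 5.72% of all genes were. Junb, a subunit of AP-1, had 10.8 and 10.04 CPM, against 40.3 and 45.7 CPM in Hypox liver (-2.03 ± 0.17, adjusted p = 0.000306). Egr1, a zinc finger immediate early factor, had 6.61 and 3.41 CPM, against 15.3 and 28.5 CPM in Hypox liver (-2.11 ± 0.42, adjusted p = 0.0126). Both are below Hypox without overlap. Errfi1, a feedback inhibitor of EGF receptors, had 256 and 187 CPM, against 122 and 100 CPM in Hypox liver (0.98 ± 0.16, adjusted p = 0.00476). At 90 min Errfi1 was lower than in Hypox liver without a call (-0.57 ± 0.16, adjusted p = 0.174). Fos, named after its values were seen, had 1.22 and 0.863 CPM at 240 min, against 3.28 and 5.97 CPM in Hypox liver (-2.00 ± 0.48, adjusted p = 0.0249). The call of Egr1 was lost without the shallower Hypox library (-1.66, adjusted p = 0.0971) or the shallower 240 min library (-1.64, adjusted p = 0.0805), and limma-voom did not call Fos (adjusted p = 0.0571). For Fos the call also ended on omission of the shallower Hypox library (-1.58, adjusted p = 0.167), the deeper 240 min library (-2.23, adjusted p = 0.0556) or the shallower 240 min library (-1.77, adjusted p = 0.116).

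None of 14 growth factor receptor genes was called by limma or limma-voom at 30 or 90 min. At each of these times 1 had an unadjusted p under 0.05, and at 240 min 7 had. At 240 min 2 receptor genes were called higher and 2 lower, where 5.72% and 5.54% of all genes were. Egfr, the EGF receptor gene, had 121 and 192 CPM at 240 min, against 51.6 and 29.4 CPM in Hypox liver (1.96 ± 0.45, adjusted p = 0.0212). Erbb3, its kinase-impaired partner, had 31.5 and 24.2 CPM at 240 min, against 60.1 and 47.7 CPM in Hypox liver (-0.95 ± 0.16, adjusted p = 0.00527). Ghr, the GH receptor gene, had 208 and 205 CPM at 240 min, against 138 and 157 CPM in Hypox liver (0.49 ± 0.12, adjusted p = 0.0296). None of these pairs overlapped with Hypox. The call of Egfr was lost without the shallower Hypox library (1.56, adjusted p = 0.145) or the shallower 240 min library (1.63, adjusted p = 0.115), and the call of Ghr without any single library of its 2 groups (adjusted p = 0.0713 to 0.155). With no filter on low counts (adjusted p = 0.0533) and with the 2 groups fitted alone (adjusted p = 0.0666) Ghr was not called either. Kdr is an endothelial receptor named after its values were seen. It had 30.3 and 30.7 CPM at 240 min, against 39.7 and 40.8 CPM in Hypox liver (-0.40 ± 0.10, adjusted p = 0.0334). Its call was lost without any single library of its 2 groups, at differences of -0.414 to -0.379. The call was also lost with library totals as the only scaling (adjusted p = 0.114) or with the 2 groups fitted alone (adjusted p = 0.0923).

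By the likeness of their exonic levels over the 8 libraries, Myc (Pearson r = 0.963) and BC005561 (r = 0.941) were among the 3 genes closest to Phlda1, out of 9244 genes whose mean reached 2 CPM. These values describe 8 libraries that share 4 group means. BC005561 had 14.9 and 15.8 CPM at 90 min, against 5.23 and 6.47 CPM in Hypox liver. It was higher by 1.38 at 90 min (adjusted p = 0.013), a call that ended on omission of the deeper Hypox library (1.24, adjusted p = 0.0992) or of either 90 min library (1.43 with adjusted p = 0.0754 and 1.34 with adjusted p = 0.136).

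Hepatocyte markers were abundant in every library, as the liver label states, and all 6 were detected. Their summed level was 17670 and 16780 CPM at 240 min, against 23280 and 23720 CPM in Hypox liver, with 0 of the 6 called. Summed sinusoidal endothelial markers were 98.2 and 103 CPM at 240 min, against 136 and 138 CPM in Hypox liver, with 2 of 6 called. Summed cholangiocyte markers were 14.5 and 22.7 CPM at 240 min, against 7.10 and 9.81 CPM in Hypox liver, with 3 of 5 called. Kupffer cell sums were 57.6 and 43.3 CPM at 240 min, against 59.8 and 78.2 CPM in Hypox liver. Stellate cell sums were 111 and 107 CPM, against 123 and 122 CPM, and neutrophil sums 1.11 and 1.09 CPM, against 2.04 and 2.55 CPM. No Kupffer cell, stellate cell or neutrophil marker was called. Lymphocyte and red blood cell sums at 240 min overlapped with Hypox. Of all 13169 genes tested, 9, 111 and 1482 were called in either direction at 30, 90 and 240 min. At 30 and 90 min no marker of the 8 cell types examined was called. Their part in the values of the members at 240 min was not tested, and in bulk liver fewer cells of a type and less RNA per cell cannot be told apart.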

How the data were processed

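Per the file headers, the deposited table gives the authors' mean FPKM of the 2 libraries of each group over the gene body, and a like read density signal per intron length, in mm9, with expression ratios and adjusted p-values for each time against Hypox. The submitters' processing notes list TopHat2, featureCounts and edgeR; versions and the strand setting of the counting are not given in the sources used here. Whole reads per library were recovered from the means, since a mean FPKM is a sum of 2 whole read numbers over their library totals and the gene's length. All 18359 genes with a value above 0 (100%) gave whole reads, and none of 300 did with totals moved by 1000 reads. In a simulated table the reads came back exactly for 379 of 380 genes with at least 10 reads in 2 libraries, and for 107 of 120 genes with fewer.

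Reads were divided by library totals to CPM and scaled by median of ratios. Factors were 0.916 to 1.05 in exons and 0.859 to 1.065 in introns, each lowest in the shallower 30 min library. Then log2(CPM + 0.1) was fitted with limma 3.58.1 in R 4.3.3 with a trended variance, over all 8 libraries with group as the only term (4 residual and 6.51 prior degrees of freedom). Genes with at least 10 reads in 2 libraries were tested. On simulated exonic reads for 90 min against Hypox, 69 of 100 genes changed 2-fold and 100 of 100 changed 4-fold were called. Among 13083 genes, 5 unchanged genes were called. The changed genes were drawn from genes with more exonic reads on average than Dusp4 and Spry2 have. Intronic reads were not simulated, so these numbers do not apply to them or to genes with few reads. The exonic and intronic log2 ratio was tested the same way. Genome structure came from GENCODE M21 and promoters from RefSeq.

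The named genes are the 10 members, up to 3 called genes of each list with the smallest adjusted p at each time, and the 3 genes most like Phlda1, of which 1 is not reported here. The members and lists were chosen with earlier results of these data known. Comparisons between GH times in introns and ratios were added after seeing the data. Alternatives were library totals as the only scaling, 1 CPM added, no filter, limma-voom, the 2 groups alone, and each of the 8 libraries left out.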

Additional observations from a re-analysis of the deposited data

Results flagged for a closer look

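Effects that differed between times after GH are given where the difference between the times was itself called with limma. In exons the log2 level of Phlda1 at 240 min differed by -1.96 from 90 min (adjusted p = 0.00087) and by -1.38 from 30 min (adjusted p = 0.00223). In introns Phlda1 differed by -2.14 (240 against 90 min, adjusted p = 0.0039) and -2.11 (240 against 30 min, adjusted p = 0.00495). Intronic Spred1 differed by -0.97 (240 against 90 min, adjusted p = 0.00197) and -0.83 (240 against 30 min, adjusted p = 0.00493), and intronic Spred2 by -0.96 (adjusted p = 0.0112) and -0.85 (adjusted p = 0.021) in the same comparisons. Intronic Etv5 was higher at 240 than at 30 min by 1.11 (adjusted p = 0.0101). The exon-to-intron log2 ratio of Spred1 was higher at 240 than at 30 min by 1.1 (adjusted p = 0.0099). The comparisons in introns and in the ratio were added after seeing the data. Omission of 1 library ended some of these calls, as given above. They were intronic Phlda1 against 30 min, intronic Spred2 in both comparisons, intronic Etv5 and the Spred1 ratio.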

How the results depend on the processing

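The genes called against Hypox numbered 9, 111 and 1482 in exons and 297, 930 and 1370 in introns at 30, 90 and 240 min. Under the 5 alternatives other than leaving out a library, this number in exons was 5 at 30 min and 66 at 90 min with no filter on low counts, 5 at 30 min with limma-voom, and 174 at 90 min and 985 at 240 min with the 2 groups fitted alone, which also gave 175 in introns at 30 min. Without 1 library these numbers ran in exons from 2 to 38 at 30 min, 11 to 28 at 90 min and 362 to 1020 at 240 min, and in introns from 90 to 442, 334 to 543 and 134 to 1119. With the groups alone the members called were 2 in exons at 90 min, and in introns 1 at 30 min and 2 at 240 min. In introns at 240 min they were 0 with no filter and 2 with limma-voom. With 1 CPM added, ratio calls among members were 2, 1 and 1 at 30, 90 and 240 min and 2 between 240 and 30 min. They were Phlda1 at all 3 times, Spred1 at 30 min, and Etv5 and Spred1 between 240 and 30 min. Without 1 library the members called ran in exons from 1 to 2 at 30 min, at 240 min and between 240 and 90 min. In introns they ran from 1 to 3 at 30 min, 0 to 1 at 240 min and 2 to 4 between 240 and 30 min, and ratio calls between 240 and 30 min from 0 to 1. Signs changed in 43 member values against Hypox, none past the threshold in either fit. With library totals as the only scaling, Dusp4 was at -0.034 (30 min) and 0.047 (240 min) and Etv5 at -0.037 (30 min) and 0.013 (90 min) in exons, and Spred1 at 0.048 in introns at 240 min. With 1 CPM added Etv5 was at -0.001 in exons at 30 min, and with limma-voom Dusp4 was at -0.026 in exons at 30 min and Dusp1 at -0.093 in introns at 90 min. Without 1 library, exonic ranges at 30 min were -0.205 to 0.218 for Dusp4, -0.272 to 0.286 for Etv5, -0.069 to 0.064 for Spred1, -0.2 to 0.047 for Spred2, -0.428 to 0.046 for Spry1 and -0.67 to 0.284 for Spry2. Those at 90 min were -0.293 to 0.264 for Etv5, 0 to 0.443 for Spry1, -0.092 to 0.158 for Spry2 and -0.023 to 0.277 for Spry4, and at 240 min -0.056 to 0.021 for Dusp4. Intronic ranges at 30 min were -0.659 to 0.224 for Dusp4, -0.096 to 0.359 for Spred2, -0.302 to 0.873 for Spry1 and -0.042 to 0.669 for Spry4. At 90 min they were -0.419 to 0.574 for Dusp1, -0.705 to 0.012 for Dusp4, -0.124 to 0.169 for Etv5, -0.508 to 0.827 for Spry1 and -0.02 to 0.154 for Spry4, and at 240 min -0.674 to 0.274 for Dusp4, -0.084 to 0.044 for Spred1 and -1.038 to 0.133 for Spry1. The cause was not tested. Leaving out a library leaves a lone sample in its group, which is assumed to vary like the other groups. No paired analysis was possible because the recovered libraries carry no pool number. Intronic levels of Spry1 rest on 4 to 14 reads per library and those of Dusp1 and Dusp4 on 9 to 33, and the part of depth in their lack of calls was not tested.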
